A study of Mus musculus with 12 samples.

Results

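Transcripts of 10 genes that the acinar cells of the exocrine pancreas express at high levels were followed through mouse islet libraries. The genes were Prss2, Try4 and Try5 (trypsinogens), Ctrb1 (chymotrypsinogen), Cela2a and Cela3b (elastases), Cpa1 (a carboxypeptidase), Pnlip (pancreatic lipase), Clps (colipase, the cofactor of the lipase) and Reg1 (a secreted lectin-like protein). They were chosen by name, but with earlier results of these data known. All 10 were found among the 45808 genes of the bulk table and the 31055 genes of the single-cell tables. They were measured in all 4 single-cell libraries and in all 8 bulk libraries whose groups the labels give.

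In the single-cell experiments, islet cells came from doxycycline-treated mice labelled as 2 months old, with the transgenes Ppy-rtTA, TetO-Cre and R26-YFP. In these mice doxycycline at 1 mg/ml in the drinking water turns on YFP in Ppy-expressing cells. The Ppy-rtTA allele replaces the coding sequence of 1 copy of Ppy, so these mice keep a single working copy. YFP+ and YFP- cells were sorted and loaded separately in experiments 1 and 2, which pooled the islets of several mice each. Bulk γ-cells were YFP+ cells of Ppy-rtTA;TetO-Cre;R26-YFP mice (n = 5 libraries), and bulk δ-cells were YFP+ cells of Sst-Cre;R26-YFP mice (n = 3 libraries), both at 2 months on a mixed background. The γ-cell mice received the same doxycycline, and the labels of the δ-cell libraries carry the same treatment text, which speaks only of marking Ppy-expressing cells, so that it is not clear whether δ-cell mice were treated. In the δ-cell mice a Cre under the Sst gene marks every cell that has ever expressed it. The γ-cell libraries were sequenced with paired reads on one instrument and the δ-cell libraries with single reads on another, so mouse line, instrument, read layout and any difference in doxycycline cannot be told apart from cell type. The labels do not say whether bulk libraries came from separate mice, so p-values measure the spread between libraries.

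The labels were checked against marker genes. Levels are given as CPM, the count of a gene scaled to the total of its library or set of cells. YFP stood at 162 and 136 CPM in the YFP+ libraries of experiments 1 and 2, against 0.818 and 1.498 in the YFP- libraries. In bulk, Ppy lay between 87365 and 116446 CPM in γ-cells and between 10889 and 16501 CPM in δ-cells. Sst lay between 7119 and 11511 CPM in γ-cells and between 69804 and 101118 CPM in δ-cells. The γ-cell libraries also held much Gcg, between 43968 and 83707 CPM, against 1557 to 6696 CPM in δ-cells. Ins2 lay between 5225 and 15417 CPM in γ-cells and between 935 and 2297 CPM in δ-cells. The single-cell libraries held 1300 (YFP+) and 1495 (YFP-) cells in experiment 1 and 1498 and 1689 in experiment 2, with 10683494 to 18330975 UMIs each, and no pair of libraries shared more than 6 cell barcodes. Bulk libraries held 14633838 to 31784878 counts in γ-cells and 7641916 to 11773598 in δ-cells.

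Acinar cells make most of the protein that the pancreas secretes into the gut. They store proteases as inactive zymogens, and trypsin, once its own activation peptide has been removed in the gut, activates the other zymogens. Acinar cells surround the islets, so that islet preparations can carry some of them along, and RNA set free from them can enter droplets and sorted samples.

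The trypsinogen genes are near-copies of each other, which bears on how their reads can be told apart. In the GRCm38 annotation Try4 (chr6:41302269-41305532, plus strand), Try5 (chr6:41311233-41316841, minus strand) and Prss2 (chr6:41521787-41525079, plus strand) lie on the same stretch of chromosome 6. The coding exon 2 of each gene holds 160 bases and is given here because it carries the activation site, and capitals mark the 12 positions at which the 3 genes do not all have the same base. These sequences were read from GRCm38.p6 at chr6:41522817-41522976 for Prss2, chr6:41303284-41303443 for Try4 and chr6:41313349-41313508 for Try5, each on the strand of its gene.
Prss2: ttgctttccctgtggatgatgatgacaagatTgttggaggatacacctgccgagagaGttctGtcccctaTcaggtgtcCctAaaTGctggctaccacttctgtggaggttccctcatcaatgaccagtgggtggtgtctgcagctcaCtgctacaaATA
Try4: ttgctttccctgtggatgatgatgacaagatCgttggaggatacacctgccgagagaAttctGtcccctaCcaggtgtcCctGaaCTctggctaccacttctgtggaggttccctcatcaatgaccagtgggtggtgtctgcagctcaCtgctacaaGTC
Try5: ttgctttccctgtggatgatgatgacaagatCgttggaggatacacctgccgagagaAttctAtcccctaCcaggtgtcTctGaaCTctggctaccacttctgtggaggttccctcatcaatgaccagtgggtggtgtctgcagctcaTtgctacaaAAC

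The stretch that encodes the acidic residues before the cleavage site, begins at base 15 of the exon in all 3 genes and holds no difference. Try4 and Try5 differed at 5 of the 160 bases, Prss2 and Try4 at 8, and Prss2 and Try5 at 11. Over the whole coding sequence of 738 bases, identity was 97.4% between Try4 and Try5, 91.7% between Prss2 and Try4 and 90.4% between Prss2 and Try5. Of the windows of 100 bases (the length of a bulk read) in the Try4 transcript, 30.2% occurred unchanged in the transcript of another trypsinogen, and 25.6% of those of Try5 did, against 0% of those of Prss2. Counts of Try4 and Try5 in bulk are therefore uncertain with respect to each other. In the last 300 bases, on which the 3′ single-cell reads concentrate, 5 of 201 windows were shared for each of the pair.

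Upstream sequences were found for 8 of the 10 genes, without Clps and Try5. In the 250 bases before the start of transcription, CACCTG (an E-box) occurred on either strand in 4 of the 8 and TTTCCC (a TC-box) in 5, letters that are part of the binding element known for the acinar factor complex around Ptf1a. Among all 32851 promoters of this length, 17.2% held the first, 21.9% the second and 3.61% both. Cela2a and Prss2 held both, which is why they are shown, with the letters that match either motif, or its reverse complement, in capitals (chr4:141826006-141826255, minus strand, and chr6:41521526-41521775, plus strand, from RefSeq's gene starts on GRCm38.p6). The motifs do not overlap each other in these sequences, and a match is not evidence of a bound site.
Cela2a promoter: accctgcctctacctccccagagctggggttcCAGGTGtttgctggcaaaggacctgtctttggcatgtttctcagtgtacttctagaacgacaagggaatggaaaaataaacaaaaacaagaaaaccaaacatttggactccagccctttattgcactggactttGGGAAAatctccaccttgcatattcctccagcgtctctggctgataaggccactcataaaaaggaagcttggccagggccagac
Prss2 promoter: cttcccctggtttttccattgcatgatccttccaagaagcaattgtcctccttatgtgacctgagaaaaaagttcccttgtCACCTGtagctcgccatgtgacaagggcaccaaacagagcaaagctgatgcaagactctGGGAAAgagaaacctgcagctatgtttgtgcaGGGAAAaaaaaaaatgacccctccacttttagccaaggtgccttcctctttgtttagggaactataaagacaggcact

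The first question was which cells carried these transcripts. A cell was called acinar when other acinar genes (Cel, Cpb1, Cela1, Ctrl and others, not the 10 genes themselves) made up at least 5% of its UMIs. By the full list this gave 22 YFP- cells in experiment 1, 31 YFP- cells in experiment 2 and 0 in both YFP+ libraries, which allows a share of up to 0.231% and 0.2003% acinar cells. In experiment 2, however, 23 of the 31 cells passed only through Zg16, a zymogen granule lectin. The leading genes of these 23 cells were Zg16, Tff3, Fcgbp, Clca1 and Muc2, of which the last 4 are known from mucus-secreting goblet cells, and Prss2, Cela2a and Cpa1 had 0 UMIs in them. They were set apart after their values were seen, which left 22 acinar cells among 1495 (1.47%, exact 95% interval 0.924 to 2.22%) in experiment 1 and 8 among 1689 in experiment 2.

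In these 30 acinar cells the 10 genes were a large part of the transcriptome. They made up 13.6 to 61.4% of a cell's UMIs in experiment 1 (median 49.8%, n = 22 cells) and 35.1% of all UMIs of the 8 cells in experiment 2. Every gene of the 10 was detected in each of the 30 cells. Each UMI marks the 3′ end of 1 molecule, so that these levels do not depend on transcript length. Ctrb1 led in both experiments, with 140719 and 90679 CPM, and Clps followed with 128381 and 63924. Cpa1 was the lowest of the 10, with 22044 CPM in experiment 1 and 11587 in experiment 2. The chymotrypsinogen and the colipase thus held more UMIs than any trypsinogen, which stood between 26689 (Try5) and 46556 (Try4) in experiment 1 and between 29404 (Prss2) and 35152 (Try5) in experiment 2. These values describe 22 and 8 cells, and intervals cover counting error only.

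A further 5 cells had at least 5% of their UMIs from the 10 genes but were not acinar by the list, 4 of them YFP- cells of experiment 1 and the other a YFP- cell of experiment 2. This group, too, was set apart after its values were seen, and because the 10 genes chose it, their levels here are a description. The share of UMIs from the 10 genes was 6.81, 8.95, 10.7 and 12.9% in the cells of experiment 1 and 7.43% in that of experiment 2. Their mixture was unlike that of the acinar cells. Try5, Ctrb1 and Prss2 led in both experiments. Try5 stood at 2491, Ctrb1 at 1521 and Prss2 at 1217 UMIs in the 4 cells of experiment 1, whereas Try4 stood at 28 and Pnlip at 14. In the cell of experiment 2 the UMIs numbered 236 for Try5, 223 for Prss2, 143 for Ctrb1, 13 for Try4 and 0 for Pnlip. Try5 was therefore 98.9% of the UMIs of Try4 and Try5 together in the cells of experiment 1 (exact 95% interval 98.4 to 99.3%) and 94.8% in that of experiment 2, against 36.4% (35.7 to 37.2%) and 53.4% in the acinar cells.

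Other acinar genes are given for these cells as a description, since Spink1, Cel and Cela1 are on the list that told the acinar cells from the 5 cells. Spink1, a trypsin inhibitor, stood at 6725 and 7692 CPM in them and at 11092 and 11015 in the acinar cells. Cel (carboxyl ester lipase) had 0 UMIs in the 5 cells but 5415 and 4274 CPM in the acinar cells, and Cela1 stood at 227 and 0 against 26999 and 23896. Ptf1a, a transcription factor that acinar cells need and that chose neither group of cells, had 9 UMIs in all 5 cells together (6 in experiment 1 and 3 in experiment 2), 9 in the acinar cells of experiment 1 and 0 in those of experiment 2. No UMI of Ptf1a was found in the remaining 5924 cells. The 5 cells held 10921 to 28265 UMIs each, and the 1 with the most had 3452 UMIs of Gcg. By their markers 2 of the 5 were placed with ductal cells, 1 with Gcg-expressing cells and 2 in no class. Doublets were not removed here. The authors removed putative doublets in their own analysis, and whether the deposited cells had passed that step is not known. Whether any of these cells is a pair of cells was not tested.

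**Figure D1:**
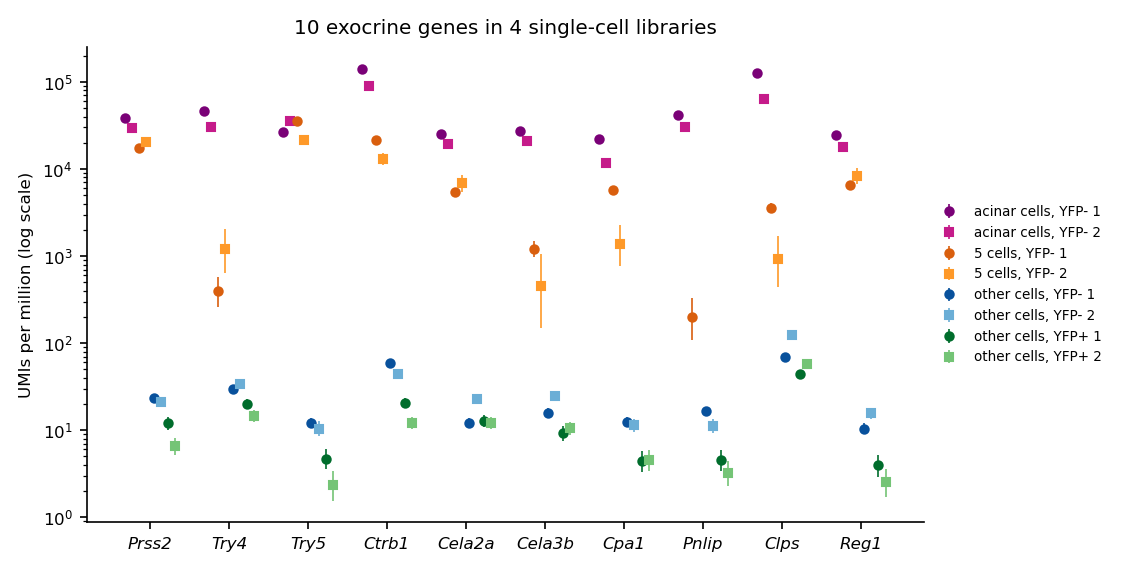
Level of each of the 10 genes, in CPM on a log scale, in the acinar cells, the 5 cells described above and all other cells of each single-cell library, with exact 95% Poisson intervals as bars (counting error only). The acinar cells lie far above the other cells for every gene, and the 5 cells lie near them for Try5 and Prss2 but far below for Try4 and Pnlip. Pnlip at 0 in the single cell of experiment 2 is not drawn.

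The 10 genes were also found throughout the other 5924 cells, at a far lower level. Summed over the 10 genes, this level was 136 CPM (exact 95% Poisson interval 129 to 143) in the YFP+ and 261 (253 to 268) in the YFP- library of experiment 1. In experiment 2 it was 126 (119 to 132) and 319 (308 to 329). Both YFP- libraries lay above both YFP+ libraries. Set against the acinar cells of the same experiment, the other cells of a library held as many of these UMIs as 0.326 (YFP+) and 0.962 (YFP-) average acinar cells in experiment 1, and 0.996 and 2.31 in experiment 2. In the YFP- library of experiment 1, the 22 acinar cells held 90.3% of all UMIs of the 10 genes, the 4 cells described above 5.76% and all other cells 3.95%. In that of experiment 2 the 8 acinar cells held 73.2% and the other cells 21.1%.

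At least 1 UMI of the 10 genes was seen in 38.6% of the other cells of the YFP+ library and in 85.0% of those of the YFP- library in experiment 1, at median depths of 7601.5 and 8362 UMIs. The shares in experiment 2 were 35.6% and 53.0%, at 5824.5 and 4237 UMIs. With every cell thinned to 1000 UMIs the shares were 10.2% and 25.1% in experiment 1 and 10.5% and 20.6% in experiment 2. No cell was left out by the thinning, as all held more than 1000 UMIs. The YFP- libraries thus stayed above the YFP+ libraries at equal depth. Among thinned cells the variance of the summed UMIs was 1.62 to 1.71 times the mean in 3 libraries and 3.53 times in the YFP- library of experiment 2.

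The mixture of the 10 transcripts in the other cells was close to that of the acinar cells in only 1 of the 4 libraries. In the YFP- library of experiment 1 each gene stood at 0.0401 (Pnlip) to 0.0638% (Try4) of its level in the acinar cells, a 1.59-fold range. In the YFP+ library of the same experiment the range was 4.63-fold, from 0.0110 (Pnlip) to 0.0507% (Cela2a). In experiment 2 it was 6.48-fold in the YFP- library, from 0.0297 (Try5) to 0.193% (Clps), and 13.5-fold in the YFP+ library, from 0.00667 (Try5) to 0.0897% (Clps). The acinar cells came from the YFP- libraries alone, so that the YFP+ values were set against acinar cells of the other fraction.

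Clps stood out in the other cells. Of the UMIs of Clps and Ctrb1 together, Clps made up 47.7% (exact 95% interval 47.3 to 48.1%) in the acinar cells of experiment 1, 53.8% (51.7 to 55.8%) in the other YFP- cells and 68.1% (64.6 to 71.4%) in the YFP+ cells. In experiment 2 the shares were 41.3% in the acinar cells, 73.5% in the other YFP- cells and 82.5% in the YFP+ cells. In each experiment the order was therefore acinar, other YFP-, YFP+. Pnlip, which like Ctrb1 was low in experiment 1 (0.0401 and 0.0110%), differed less on the same measure, where both genes are low. Of the UMIs of Pnlip and Ctrb1 together, it made up 22.7% (22.3 to 23.1%) in the acinar cells of experiment 1, 21.9% (19.7 to 24.1%) in the other YFP- cells and 18.1% (13.9 to 23.0%) in the YFP+ cells, intervals that overlap. In experiment 2 it made up 25.3% (24.0 to 26.7%), 20.3% (17.1 to 23.8%) and 20.9% (15.2 to 27.6%). Try5 of Try4 and Try5 together was 29.1 and 23.8% in the other YFP- cells and 18.8 and 13.8% in the YFP+ cells, below the acinar cells in all 4 libraries.

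A few single cells held much of the UMIs of 1 gene. In the YFP- library of experiment 2 a cell of 3001 UMIs held 48 UMIs of Reg1 and 0 of the other 9 genes. In the same library 2 cells held 87 and 97 UMIs of Clps, with 2 and 4 UMIs of all other genes of the 10, and 1 of the 23 cells with high Zg16 held 21 UMIs of Clps. The 23 cells as a whole held 89 UMIs of Clps (887 CPM, exact 95% Poisson interval 712 to 1091) and 8 of the other 9 genes together. Such cells were looked for after the data had been seen, among cells with at least 20 UMIs from the 10 genes and at least 80% of them from 1 gene.

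The level also differed between classes of cells, named from the number of markers detected. In the YFP- library of experiment 1 the sum of the 10 genes was 755 CPM (exact 95% Poisson interval 674 to 843) in 57 ductal cells, 581 (492 to 681) in 62 macrophages and 421 (380 to 465) in 213 Sst-expressing cells. It was 348 (329 to 368) in 407 Gcg-expressing cells, 197 (189 to 206) in 468 Ins2-expressing cells and 161 (136 to 189) in 76 B-lineage cells. Ductal cells also ranked highest in experiment 2, with 1190 CPM (1060 to 1330, 54 cells). There 207 Sst-expressing cells had 603, 186 macrophages 502, 493 Gcg-expressing cells 334 and 121 Ins2-expressing cells 97.5 CPM. Endocrine cells were named by their highest hormone, however low it was. The Gcg-expressing class of experiment 2 thus includes a cell of 20126 UMIs with 69 of Gcg and 97 of Clps. Depth differed between the classes, with a median of 23557.5 UMIs in Ins2-expressing and 5660 in ductal cells of the YFP- library of experiment 1.

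Counted per cell, the order changed. Ins2-expressing cells held 4.62 UMIs of the 10 genes per cell in the YFP- library of experiment 1, second to ductal cells with 5.58, whereas Sst-expressing cells held 1.81 and macrophages 2.44. In experiment 2 ductal cells held 5.70 per cell, T-lineage cells (18 cells) 3.28, Gcg-expressing cells 3.03, Sst-expressing cells 2.04 and Ins2-expressing cells 1.44. Ductal cells were highest by both measures in both YFP- libraries, while endothelial cells held 1.01 and 0.253 and stromal cells 0.914 and 0.331 UMIs per cell. In the YFP+ libraries the Ppy-expressing cells held 1.42 (893 cells) and 1.01 (1112 cells), and stromal cells 0.0800 (25 cells) and 0.0886 (79 cells). Any free RNA would be counted in the same droplets as the cells of a class, and how much of each value is free RNA was not tested.

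**Figure D2:**
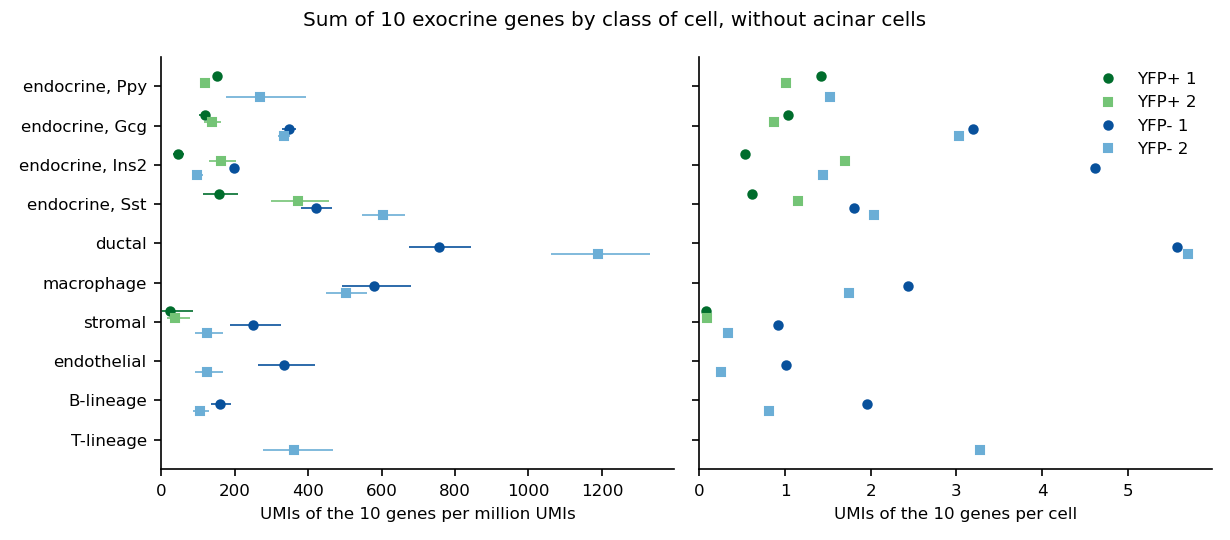
Sum of the 10 genes in classes of at least 15 cells, as CPM within the class (left, bars are exact 95% Poisson intervals) and as UMIs per cell (right), for the 4 single-cell libraries. Ductal cells lie highest in both YFP- libraries on both scales, and stromal cells of the YFP+ libraries lie lowest.

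Next, YFP+ and YFP- libraries were compared over all cells that were not acinar by the full list, summed per library (1473 and 1658 YFP- cells), with the experiment as a block. Of 13597 genes tested with edgeR's quasi-likelihood test, 13.0% were called lower in YFP+ cells (adjusted p at most 0.05 and at least a 2-fold difference) and 2.85% higher. Among the 10 genes 8 were called lower, with a median log2 fold change of -2.01, against -0.0028 over all genes tested. Before the difference, the levels of Try5 were 4.70 and 2.34 CPM in the YFP+ libraries, and 12.2 and 10.4 in the other cells of the YFP- libraries without the 5 cells described above. With those cells included Try5 had the largest difference, with a log2 fold change of -4.48 ± 0.37 (SE, adjusted p = 0.000102).

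The 5 cells carried much of this comparison. The 10 genes themselves chose these cells, and all 5 were YFP-. Leaving them out therefore lowers the summed YFP- level by construction, and calls and p-values without them are a description. Without them, an alternative added after the values were seen, 6 of the 10 genes were called lower (against 13.0% of all genes tested, with 2.87% higher) and the median log2 fold change was -1.26. Pnlip, which these cells barely held, kept its value, with a log2 fold change of -1.80 ± 0.24 with and -1.77 ± 0.24 without them (edgeR, adjusted p = 0.00124 and 0.000985). Reg1 moved from -3.14 ± 0.21 to -1.88 ± 0.25, Prss2 from -2.73 ± 0.22 to -1.21 ± 0.17 and Try5 from -4.48 to -1.64 ± 0.23. Cela2a lost its call, with -1.25 ± 0.19 (edgeR, adjusted p = 0.00259) with and -0.33 ± 0.19 (adjusted p = 0.252) without them. Its levels were 12.7 and 12.1 CPM in the YFP+ and 12.2 and 23.1 in the other YFP- cells, which overlap. Cela3b also lost its call, at -1.10 ± 0.18 with and -0.90 ± 0.17 without them. Try4 (-0.83 ± 0.15) and Clps (-0.90 ± 0.17) passed the p-value but not the 2-fold threshold. Without the experiment as a block, Cela3b and Reg1 kept their call and the other 6 lost it (edgeR, adjusted p = 0.0605 to 0.102).

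Within each experiment, with the 5 cells included, all 10 genes lay below their YFP- level in the YFP+ library. Without them Cela2a in experiment 1 lay slightly above it, as its levels above show. The log2 ratios ran from -0.62 (Try4) to -4.99 (Try5) in experiment 1 and from -1.11 (Clps) to -3.81 (Try5) in experiment 2. Other cell types moved with the fraction. All 8 macrophage markers, all 8 B-lineage markers and 7 of 8 endothelial markers were called lower in YFP+ cells. So were 5 of the 7 ductal markers tested, with Krt19 at -3.28 and Muc1 at -3.45 on the log2 scale. Of all genes tested, 13.0% were called lower. Their part in the difference of the 10 genes was not tested.

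Of the 20 other acinar genes in the single-cell tables, 14 passed the filter on low counts, and 11 were called lower and 1 higher in YFP+ cells. These genes also chose the acinar cells that were left out, all of them YFP-. Their summed YFP- levels were therefore lowered by construction, and their calls and p-values here are a description. Over all genes tested the shares were 13.0% and 2.85%. Without the 5 cells 9 were called lower and 1 higher, against 13.0% and 2.87% of all genes tested. The log2 fold change of Spink1 was -4.11 with and -2.63 without these cells, which hold much of it, and that of Cpb1, a carboxypeptidase, was -2.69 and -2.32. The gene that rose was Pla2g1b, a secreted phospholipase, at 31.2 and 25.3 CPM in the YFP+ libraries and 7.59 and 11.1 in the other cells of the YFP- libraries, with a log2 fold change of 1.69 ± 0.17 (edgeR, adjusted p = 0.000259). Cela1, an elastase gene, was not called (-0.65 ± 0.15, edgeR, adjusted p = 0.0192), and its level followed the hormone of the cell. It stood at 231 and 186 CPM in Sst-expressing cells of the YFP+ libraries and at 209 and 160 in those of the YFP- libraries, against 12.8 and 13.4 in the Ppy-expressing cells of the YFP+ libraries. Pla2g1b stood at 36.2 and 26.9 CPM in the same Ppy-expressing cells, and at 28.5 and 24.9 in the Gcg-expressing cells of the YFP+ libraries. In those libraries Sst-expressing cells had 6.79 and 24.8 CPM and Ins2-expressing cells 2.22 and 6.09. The Ins2-expressing cells of the YFP- libraries had 3.92 and 2.80.

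**Figure D3:**
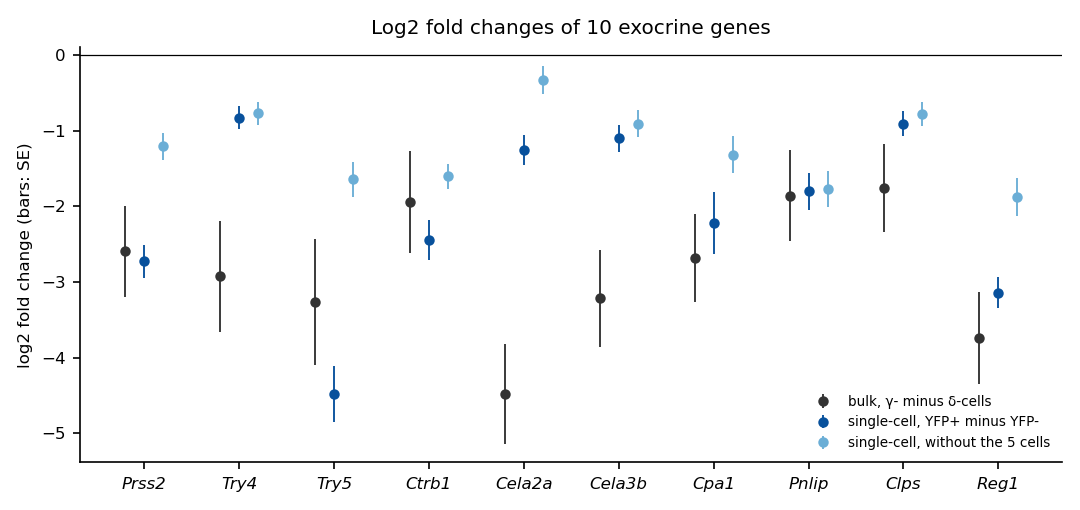
Log2 fold change of each of the 10 genes with its standard error, derived from the F statistic of the test. Values are for bulk γ- against δ-cells (n = 5 and 3 libraries) and for single-cell YFP+ against YFP- libraries with and without the 5 cells rich in Prss2 and Try5 (n = 2 and 2 libraries). All values lie below 0, and removing the 5 cells moves Try5, Prss2, Reg1 and Cela2a most.

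In bulk, the sum of the 10 genes was 1847, 9398, 2302, 5560 and 11095 CPM in γ-cell libraries 1 to 5, and 82146, 70569 and 18762 CPM in δ-cell libraries 1 to 3. The 3 δ-cell libraries lay above all 5 γ-cell libraries, although the spread within a group was 6.01-fold and 4.38-fold, and the ratio of the means was 9.46. Together with the other acinar genes they made up 0.304 to 1.72% of all reads in γ-cells and 3.51 to 14.6% in δ-cells. In a bulk library, fewer acinar cells and less acinar RNA per cell cannot be told apart.

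Among the proteases, Cela2a showed the largest difference between groups. Its levels were 194, 982, 255, 726 and 1195 CPM in the γ-cell libraries and 24106, 23760 and 6453 CPM in the δ-cell libraries. The groups did not overlap, and the log2 fold change of γ- against δ-cells was -4.48 ± 0.66 (SE, edgeR, adjusted p = 0.000236). Prss2 ranged from 244 to 1348 CPM in γ-cells (median 613) and stood at 7472, 6555 and 2081 CPM in δ-cells. It did not overlap either, at a log2 fold change of -2.59 ± 0.60 (edgeR, adjusted p = 0.00438). Try4 reached 1797 CPM in γ-cell library 5 and fell to 1715 CPM in δ-cell library 3, so that its groups overlapped, at -2.93 ± 0.73 (edgeR, adjusted p = 0.00665).

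Try5 stood at 86.0, 740, 139, 89.2 and 800 CPM in the γ-cell and at 6445, 5292 and 1403 CPM in the δ-cell libraries. Its ratio to Try4 was 0.111 in γ-cell library 4 and 0.297 to 0.567 in the other γ-cell libraries, and 0.483, 0.544 and 0.818 in the δ-cell libraries. As shown above, reads of both genes can be shared, so the ratio is uncertain. Ctrb1 ranged from 215 to 1512 CPM (median 759) in γ-cells and stood at 6064, 4261 and 1134 CPM in δ-cells, which overlap. Cela3b ranged from 68.2 to 400 CPM and Cpa1 from 141 to 745 CPM in γ-cells, and their lowest δ-cell libraries had 788 and 1358 CPM.

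The lipase and colipase differed least. Pnlip stood at 418, 1941, 514, 1378 and 2343 CPM in the γ-cell and at 7959, 7368 and 2071 CPM in the δ-cell libraries, with a log2 fold change of -1.85 ± 0.60 (edgeR, adjusted p = 0.0242). Clps stood at 111, 528, 135, 368 and 543 CPM and at 1941, 1711 and 504 CPM, with -1.76 ± 0.58 (edgeR, adjusted p = 0.0265). For both, the highest γ-cell library lay above δ-cell library 3. Reg1 lay between 81.1 and 442 CPM in γ-cells (median 256) and between 1255 and 5996 CPM in δ-cells, with -3.74 ± 0.61 (edgeR, adjusted p = 0.000481).

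In all, 10 of the 10 genes were called lower in γ-cells, where 14.2% of the 17926 genes tested were called lower and 20.7% higher. The median log2 fold change was -2.80 for the 10 genes and -0.06 for all genes tested. For 6 of the 10 every γ-cell library lay below every δ-cell library, which held for 34.9% of all genes tested. Without δ-cell library 1 or without δ-cell library 2, Ctrb1, Pnlip and Clps lost their call and 7 remained (edgeR, adjusted p = 0.0787 to 0.126 without library 1 and 0.0890 to 0.0950 without library 2). Without γ-cell library 3 or γ-cell library 4, Ctrb1 alone lost its call (edgeR, adjusted p = 0.0529 and 0.0624).

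**Figure D4:**
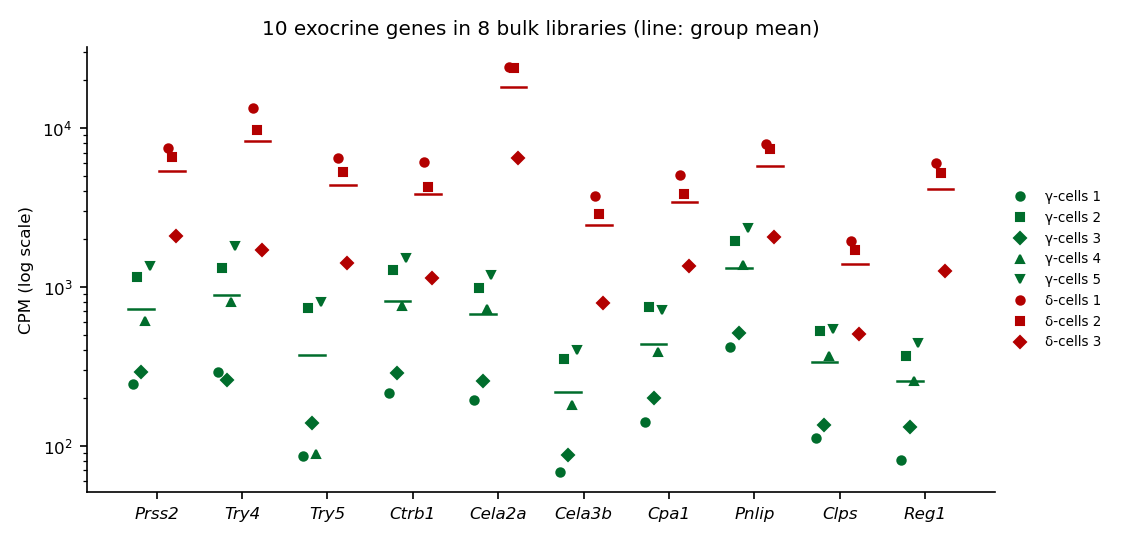
Level of each of the 10 genes in CPM on a log scale in 5 γ-cell and 3 δ-cell bulk libraries, with a line at the group mean. γ-cell libraries 2 and 5 lie highest in their group for every gene, and δ-cell library 3 lies lowest in its group for every gene.

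The 10 genes rose and fell together from library to library. All 10 had their highest 2 γ-cell values in libraries 2 and 5, and 7 of the 10 put all 5 γ-cell libraries in the same order as the sum did. All 10 put δ-cell library 1 first and library 3 last. Over the 8 libraries, with the group means removed, the genes whose log2 CPM closely resembled the summed level of the 10 genes included 2210010C04Rik (r = 0.997), Cel (0.996), Cpb1 (0.994), Ctrl (0.994), Klk1 (0.992), Cela1 (0.992), Zg16 (0.991), Pnliprp2 (0.991) and Pnliprp1 (0.986). All of them were on the list of other acinar genes, of which 19 of 21 stood among the first 50 of 15009 genes. The libraries share their depth with each of these values, and the correlations are given as a description.

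The mixture of the 10 genes nevertheless differed between the groups. Cela2a made up 10.5 to 13.1% of the reads of the 10 genes in the γ-cell libraries and 29.3 to 34.4% in the δ-cell libraries. Pnlip made up 20.6 to 24.8% in γ-cells and 9.69 to 11.04% in δ-cells, Ctrb1 11.6 to 13.7% and 6.04 to 7.38%, and Clps 4.89 to 6.61% and 2.36 to 2.68%. Reg1 made up 3.92 to 5.73% in γ-cells and 6.69 to 7.34% in δ-cells. Cela3b made up 3.23 to 3.79% and 4.04 to 4.57%. None of these 6 shares overlapped between the groups, while the sum varied severalfold within each. How often such shares of other genes fail to overlap was not counted, so the 6 of 10 is a description. The other 4 overlapped, with Cpa1 at 6.45 to 8.73% and 5.47 to 7.24%, Try4 at 11.3 to 16.2% and 9.14 to 16.3%, Prss2 at 11.02 to 13.2% and 9.10 to 11.09%, and Try5 at 1.60 to 7.88% and 7.48 to 7.85%. Since the δ-cell libraries were made from another mouse line and read differently, the origin of this difference cannot be told apart.

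**Figure D5:**
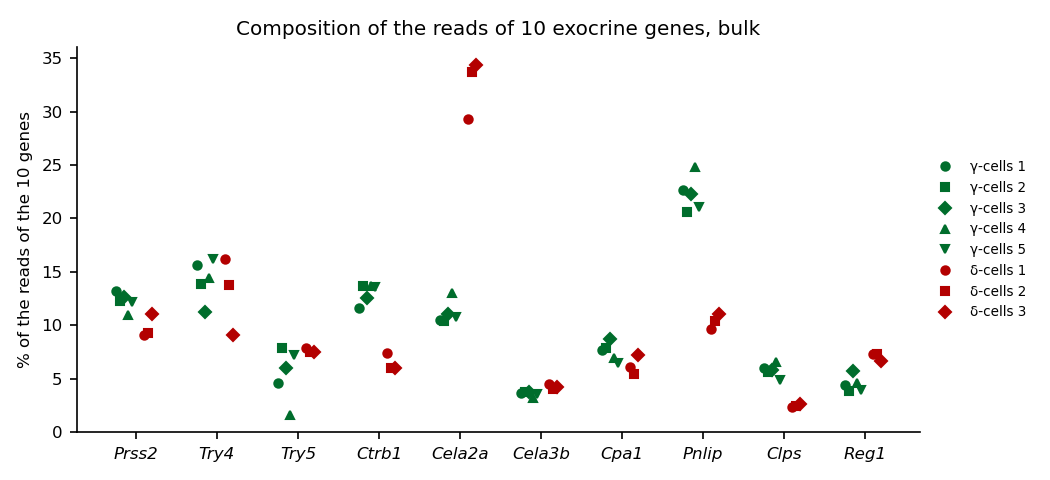
Share of each gene in the summed reads of the 10 genes, in percent, for each bulk library. Cela2a takes a larger share in all 3 δ-cell libraries and Pnlip, Ctrb1 and Clps a larger share in all 5 γ-cell libraries.

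Per 1000 exon bases, the order of the median levels in γ-cells was Try4 (1003 CPM per kb), Ctrb1 (865), Prss2 (752), Pnlip (628), Clps (601), Cela2a (421), Reg1 (283), Cpa1 (222), Try5 (154) and Cela3b (108). In δ-cells Cela2a came first (13790 CPM per kb), followed by Try4 (12145), Prss2 (8043), Try5 (5867), Reg1 (5727), Ctrb1 (4854), Pnlip (3357), Clps (2801), Cpa1 (2207) and Cela3b (1714). In each group the 9 gaps between neighbours were all smaller than the SD between libraries of the higher gene. The genes vary together from library to library, however, and within libraries 4 of the 9 neighbours in γ-cells kept their order in all 5 libraries (Prss2 over Pnlip over Clps over Cela2a over Reg1) and 6 of the 9 in δ-cells kept it in all 3 (Prss2 over Try5 over Reg1, and Ctrb1 over Pnlip over Clps over Cpa1 over Cela3b). By these lengths Cela3b ranked last in both groups and Try4 first or second. The lengths count the annotated exon bases of a gene, 1665 for Cela3b and 1723 for Cela2a. They can exceed the length of a transcript, as for Try5, with 902 exon bases and a transcript of 801 bases. The ranks and the orders kept within libraries depend on these lengths. Whether they hold with transcript lengths was not tested.

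The rest of the acinar programme was described by lists. Of the 21 other acinar genes, 19 were called lower in γ-cells, against 14.2% of all genes tested, with a median log2 fold change of -3.36. Cel (302 to 1416 CPM in γ-cells and 3786 to 15357 CPM in δ-cells, log2 fold change -3.36 ± 0.60, edgeR, adjusted p = 0.000895) and Cela1 (180 to 842 and 2088 to 8569 CPM) were the most abundant. Amy2b (-1.03 ± 0.51, edgeR, adjusted p = 0.113) and Prss3 (-1.10 ± 1.09, adjusted p = 0.421) were not called. All 5 other Reg genes were called lower, with Reg2 at 6.44 to 61.7 CPM in γ-cells and 127 to 742 CPM in δ-cells. Of the transcription factors of acinar cells, Rbpjl (-3.48 ± 0.62, edgeR, adjusted p = 0.000876) and Nr5a2 (-3.88 ± 0.47, adjusted p = 5.88e-05) were called lower, Bhlha15 was called higher (1.04 ± 0.21, adjusted p = 0.00217) and Ptf1a had too few counts to be tested. Bhlha15 was also found in the other single cells, at 7.02 to 7.43 CPM in all 4 libraries.

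Markers of other cell types were read beside the bulk groups, and the sums of all lists given here but the glial one overlapped between the groups. Over all genes tested, 14.2% were called lower in γ-cells and 20.7% higher, which the counts of each list of 8 are to be read against. Of 8 ductal markers, 5 were called lower in γ-cells and 1, Krt7, higher, and their sum was 459 to 628 CPM in γ-cells and 589 to 1375 CPM in δ-cells. The endothelial sum was 29.3 to 63.3 CPM in γ-cells and 44.5 to 235 CPM in δ-cells, with 3 of 8 markers called lower. The stromal sum was 479 to 3051 CPM in γ-cells and 2.63 to 635 CPM in δ-cells, with 1 of 8 called higher, a share below the 20.7% of all genes. Macrophage markers (44.4 to 323 CPM in γ-cells and 94.2 to 194 CPM in δ-cells) had adjusted p-values of 0.0764 or more in edgeR. B-lineage markers, with 2 of 8 called lower, summed to 19.0 to 543 CPM in γ-cells and 189 to 861 CPM in δ-cells. T-lineage markers, with 1 of 8 called higher, summed to 17.0 to 49.8 CPM in γ-cells and 3.95 to 31.4 CPM in δ-cells. The glial sum did not overlap, at 5.67 to 13.4 CPM in γ-cells and 22.8 to 81.0 CPM in δ-cells. Of the 8 glial markers 2 were called lower and 1 higher. The part of these cells in the difference of the 10 genes was not tested.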

How the data were processed

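Raw UMI counts per gene and cell were deposited for 4 single-cell libraries. The authors made them with Cell Ranger on the mouse mm10 reference with the YFP and rtTA sequences added. Raw counts per gene were deposited for the bulk libraries, which the authors aligned with STAR 2.7.2b to GRCm38.p6 and counted with HTSeq 0.9.1 in union mode. The bulk table holds 6 further columns that match no sample label and were not used. Every deposited cell held at least 1001 UMIs, and none was removed here as a doublet. The authors kept cells with at least 1000 UMIs and removed putative doublets, and whether this came before deposition is not known.

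The 10 genes, the gene lists and the rules were chosen with earlier results of these data known. From each list the genes of highest mean CPM and those called were named, predicted genes were left unnamed, and cells and single genes outside this rule were named after their values were seen. Levels are CPM of the deposited totals. Bulk libraries were compared with edgeR 4.0.16 (TMM, quasi-likelihood test) over genes with a mean of at least 5 counts, and single-cell libraries by sums per library over cells not acinar by the list, with filterByExpr and the experiment as a block, since YFP+ and YFP- cells of an experiment were sorted from the same islets. A call needed at least a 2-fold difference (log2 of 1) and a p of 0.05 or less after Benjamini-Hochberg adjustment. The SE given with an edgeR log2 fold change is its absolute value divided by the square root of the F statistic of the test. A cell was placed in a class with at least 3 detected markers and more of that class than of any other, and endocrine cells by their highest hormone. Likeness to the summed level of the 10 genes was measured on log2(CPM + 0.5) for genes of at least 1 CPM, and 1 gene of a like pattern is not reported here. Intervals are exact at 95% and cover counting error only, and limits for a share of 0 stand at 3 counts. The tests were checked on simulated counts. DESeq2 1.42.0 served as an alternative. Counts were handled in Python 3.11.15 (pandas 2.3.3, scipy 1.17.1) and fitted in R 4.3.3.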

Additional observations from a re-analysis of the deposited data

Results flagged for a closer look

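Of 41 levels examined in the bulk γ-cells (the 10 genes, their sum and 30 genes of the acinar, Reg and regulator lists), 3 had 1 of the 5 libraries apart from the rest, with a gap over the range of the group above the critical value for 5 samples. Chance flags about 1 in 20 separate groups, but many of these levels rise and fall together. The count of 3 of 41 therefore cannot be weighed against chance. For Reg3d, a Reg family gene, the gap was 0.723 of the range, with 9.16 CPM in library 5 and 1.57 to 3.67 CPM in the others. For Rbpjl it was 0.819, with 3.14 CPM in library 5 and 0.918 to 1.32 CPM in the others. For Ptf1a it was 1, with 0.239 CPM in library 2 and 0 in the other 4. None of the 10 genes themselves stood apart in this way.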

How the results depend on the processing

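In bulk, all 10 genes stayed called lower in γ-cells under DESeq2 with shrinkage, DESeq2 size factors, upper-quartile factors (which moved the median of all genes by -0.30 on the log2 scale), library sizes without hormones, filterByExpr, no filter (a shift of -0.40), a log2 threshold of 0.5 and thinned counts, and 7 to 10 stayed called with 1 library left out (other acinar genes 18 to 20). Library numbers were not used to pair the bulk groups, which came from different mouse lines. Libraries of the same number had correlations of -0.156, 0.0708 and -0.306. Other pairs were not set beside them, so these values cannot decide the point. A replicate block over libraries 1 to 3 gave 10 and 19 calls. In single cells the fit without the replicate block called 2 of the 10 genes and 2 other acinar genes lower. Other acinar genes called lower numbered 7 with DESeq2, 5 in thinned cells and 17 with acinar cells included, where edgeR called 0 higher. Of the 10 genes, 6 were called with acinar cells taken at 1% or 2%. The share of all genes called was not counted under these alternatives, here or where they are named above. Their counts are therefore a description.

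The level of the 10 genes in cells not acinar by the list was 638 and 395 CPM in the YFP- libraries. It became 304 and 314 with acinar cells taken at 1%, 421 in experiment 1 at 2% and 447 in experiment 2 at 10%, 672 and 426 without the top 2% of cells by UMIs, 606 in experiment 1 when thinned, 1373 and 534 with hormones left out of the total, and 261 and 319 without the 5 cells. In the YFP+ libraries it was 126 in experiment 1 without the top cells, 138 in experiment 2 when thinned, and 258 and 236 without hormones. The acinar count of experiment 2 was 8 without Zg16 in the list, and the sum in γ-cell library 5 was 15255 CPM without hormones. At this depth the 10 genes could be compared only as sums over many cells, since most other cells held few or no UMIs of a given gene.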
